A study of Mus musculus with 16 samples.

Results

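The histone genes of the tumor libraries are described here: the 68 of 45777 listed genes whose symbol begins with an older histone name (Hist1h to Hist4h) or with a newer one (H1f, H2ac, H2bc, H3c or H4c). The rule used only the symbols, and genes with counts of 0 were kept. The table mixed both naming systems, with 9 older and 59 newer symbols. By class there were 10 H1, 18 H2A, 17 H2B, 12 H3 and 11 H4 genes. On the GRCm38 genome (mm10), 54 of them lay on chromosome 13, 10 on chromosome 3, and 4 H1 genes (H1f0, H1f7, H1f8 and H1f10) lay on other chromosomes. The 64 genes on chromosomes 13 and 3 are called cluster genes here. That count goes by chromosome and includes Hist1h2al, which lies away from the main cluster of chromosome 13.

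The RNA came from B16F10 tumors, a mouse melanoma line grown as a subcutaneous allograft, in 4 groups of 4 tumors. Lean hosts were wild-type C57BL/6J mice and obese hosts were ob/ob mice, which lack leptin, so that obesity here was genetic and not diet-induced. Hosts were 6 weeks old when they received the cells, and tumors were taken either before therapy or after 5 intraperitoneal injections of etoposide (ETS, a topoisomerase II poison that breaks DNA) at 20 mg/kg. The study asked how obesity changes the response of tumors to chemotherapy. The controls were pre-therapy tumors of each host, so the effect of ETS and that of the days between cannot be told apart. The tumors were profiled whole, with the host cells they held, and in such bulk RNA fewer cells of a type and less RNA per cell cannot be told apart. Libraries summed to between 47199949 and 61655287 counts, and the melanocyte markers (Mlana, Pmel, Tyr, Dct and 5 others, none at 0 in any group) summed to at least 11200 counts-per-million in each library.

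Histones package DNA. H2A, H2B, H3 and H4 form the core particle and H1 binds the linker between particles. Most copies of these genes stand in clusters and are replication-dependent: they are transcribed in S phase, and their mRNAs end not in a poly(A) tail but just past a short stem-loop that the protein SLBP binds. Variants made outside S phase, such as H1f0, a linker histone known from differentiated and resting cells, come from ordinary polyadenylated mRNAs. Some clustered genes can also yield polyadenylated transcripts when the polymerase runs past the stem-loop. The libraries were made by poly(A) selection, so the values below are those of poly(A) RNA and not of all histone mRNA.

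The stem-loop was found in the GENCODE M21 transcripts of 42 members, all in the clusters, and in none of the 4 H1 genes outside them. It began 21 to 58 bases past the stop codon. Many of the other cluster models stop at or within a few bases of the stop codon, so a stem-loop could not be found in them. There were 8 forms of these 16 bases, and 4 of them are shown because they mark where a replication-dependent mRNA normally ends. Capitals mark the 6 paired bases on each side, lower case the loop.
24 genes, among them H1f2, H2ac18, H2ac19, H2bc6, H2bc8, H3c14 and H3c15: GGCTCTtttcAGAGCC
6 genes, among them H2bc3 and H2bc12: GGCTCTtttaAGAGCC
H4c9 and H4c14: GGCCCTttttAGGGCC
H4c2 and H4c11: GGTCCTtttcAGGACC
In H1f2 this element lay at chr13:23739512-23739527 on the plus strand, inside the exon and 24 bases past the stop codon. The RefSeq gene ends at base 23739531 of chromosome 13, whereas the GENCODE transcript runs 840 bases beyond the loop to a poly(A) signal. In H2ac18 it lay at chr3:96246032-96246047 (plus strand) and in H2bc8 at chr13:23571843-23571858 (plus strand). The stem-loop of H4c9 was at chr13:22040966-22040981 on the minus strand, with 330 transcribed bases past it and a poly(A) signal.

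Promoters of 62 members were held in the RefSeq promoter table (GRCm38.p6, 250 bases before to 50 after each gene start), 63 in all since H2bc6 had 2. The 6 other members were H2bc4, H2bc21, H3c1, H3c7, H4c14 and Hist1h2al. The 3 shown belong to rising members of the H1, H2A and H2B classes, with capitals for 3 elements of histone promoters found on either strand: the CCAAT box (ATTGG when read on the other strand), the TATA box as TATAAA, and the octamer as ATTTGCAT.
H1f2, chr13:23738557-23738856, plus strand: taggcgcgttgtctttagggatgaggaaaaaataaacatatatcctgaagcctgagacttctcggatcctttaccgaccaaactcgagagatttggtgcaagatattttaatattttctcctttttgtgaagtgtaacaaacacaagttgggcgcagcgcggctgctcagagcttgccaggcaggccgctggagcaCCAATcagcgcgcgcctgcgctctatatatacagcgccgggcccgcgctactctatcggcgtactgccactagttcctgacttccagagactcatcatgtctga
H2ac18, chr3:96245247-96245546, plus strand: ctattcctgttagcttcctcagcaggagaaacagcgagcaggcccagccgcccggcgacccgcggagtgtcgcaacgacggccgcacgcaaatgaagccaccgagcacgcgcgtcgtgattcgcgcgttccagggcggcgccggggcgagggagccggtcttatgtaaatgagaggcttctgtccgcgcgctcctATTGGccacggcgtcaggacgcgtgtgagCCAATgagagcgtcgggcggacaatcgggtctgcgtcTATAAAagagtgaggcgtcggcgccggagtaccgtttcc
H2bc8, chr13:23571150-23571449, plus strand: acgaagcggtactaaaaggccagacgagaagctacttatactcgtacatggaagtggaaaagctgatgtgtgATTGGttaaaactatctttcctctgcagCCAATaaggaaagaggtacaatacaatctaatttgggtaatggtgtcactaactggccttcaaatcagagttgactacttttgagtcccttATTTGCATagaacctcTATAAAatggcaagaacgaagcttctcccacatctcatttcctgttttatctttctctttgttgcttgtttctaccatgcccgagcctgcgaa
The H1f2 promoter held CCAAT 54 bases before the gene start. That of H2bc8 held CCAAT 150 bases before the start and, on the other strand, 178 bases before it, then ATTTGCAT at 59 and TATAAA at 43 bases. In H2ac18 the annotated start stood upstream of TATAAA, which began 11 bases past it. CCAAT was present in 88.1% of the 59 promoters of cluster members against 37.4% of all 32851 promoters in the table. TATAAA stood in 57.6% of them against 13.6%, and ATTTGCAT, the octamer that the factor encoded by Pou2f1 binds, in 22% against 1.74%. The octamer was found only in H2A promoters (6 of 17) and H2B promoters (7 of 16), while CCAAT stood in every H1, H2A, H2B and H3 cluster promoter of the table and in 3 of 10 for H4. Divergent H2A and H2B neighbours share such promoter DNA, so these are not independent counts. A match of letters is a description and not evidence of binding.

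Read coverage of these genes was very uneven. H1f0 alone took 76.8% of all counts of the 68 genes, and the 6 members with the highest counts took 94.1%. In TPM (transcripts-per-million, the deposited level corrected for transcript length), H1f0 averaged 254 over the 16 libraries. H2bc4 followed at 65.6 TPM, then H1f2 at 47.3, H2ac18 at 17.8, H2ac19 at 16.9, H2bc8 at 15.9 and H4c9 at 15.2 TPM. Another 19 members lay between 1 and 10 TPM, led by H2bc21 at 9.08 TPM, and 42 lay under 1 TPM. The highest H3 genes were H3c14 at 1.65 and H3c15 at 1.46 TPM, and after H4c9 the next H4 gene was H4c2 at 1.34 TPM. The median of the 64 cluster members was 0.697 TPM. H2ac1 and H1f7, known from testis or germ cells, had a count of 0 in every library, and 58 members had a count above 0 in all 16.

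Levels also differed with the annotated 3′ end, which is given as a description with no test. Transcript models fell into those with a 3′ UTR over 100 bases and no stem-loop (7 genes, H1f0 and H1f10 among them, median 4.88 TPM), those that ran more than 100 bases past the stem-loop (20 genes, median 1.14 TPM), those that stopped at it (21 genes, median 0.695 TPM) and short models without it (18 genes, median 0.167 TPM). Most of the short models stop at or near the stop codon, before the place where a stem-loop could be found. Their genes are thus not known to lack it. H2bc4 and H2bc21 stood in the group with a long UTR and no stem-loop. The H2bc4 model is spliced, with 2 exons in a gene that spans chr13:23684199-23692480, and the H2bc21 model has a 3′ UTR of 2192 bases. H1f2, H2bc8 and H4c9 ran past the loop. H2ac18 and H2ac19 were the exception among models that end at the loop, whose next highest member was H2bc11 at 1.55 TPM. The groups also differed in how much of a gene recurs in another member, with medians of 0%, 15.4%, 52.3% and 56.4% of windows of read length in the order above, and the part of shared reads in these levels was not tested.

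**Figure D1:**
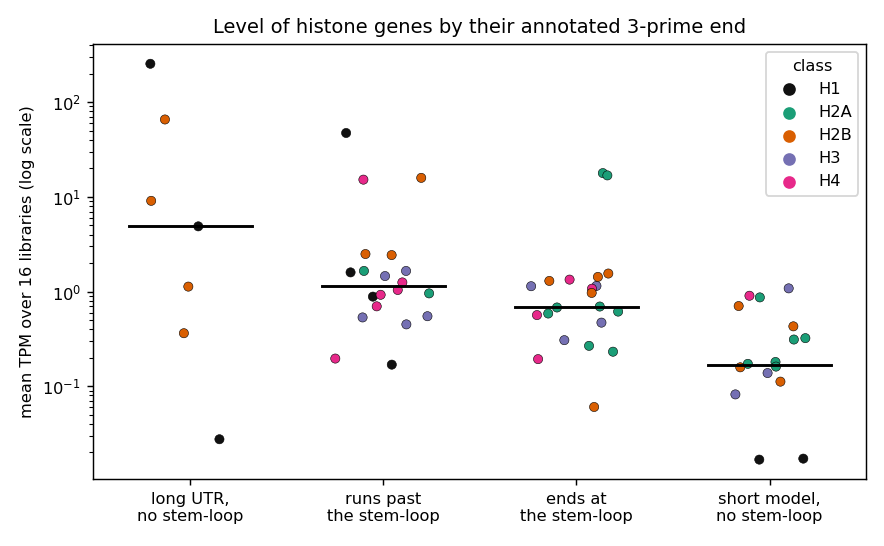
Mean level of each histone gene over the 16 libraries (vertical axis, TPM on a log scale) by the 3′ end of its GENCODE M21 transcript, colored by class. Bars are medians over the group, and the 2 genes at 0 are counted in the medians of their groups but cannot be drawn. Medians fall from 4.88 TPM for long UTRs without a stem-loop to 0.167 TPM for short models, and H2ac18 and H2ac19 stand above the rest of the models that end at the loop.

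Because near-identical copies share reads, some members cannot be read alone. All windows of read length in H2ac19 and 88.1% of those of H2ac18 recur in another member, and their counts ran side by side (4948 and 5018 over all libraries), so they are best read as a pair. Of the H3c15 windows 61.5% recur, as do 32.8% of those of H3c14. Sharing was also large for Hist1h2br (85.7%), H2ac7 (63.6%) and H2bc15 (51.25%). It was 45.7% for H2bc7, 44.8% for H2bc8 and 25.3% for H2bc4. In contrast H1f0, H1f10 and H2bc21 share no window with a member, H1f2 shares 5.0% and H4c9 15%. H2bc6 spans 37455 bases and overlaps Gm33387.

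In tumors of lean hosts, the summed level of clustered histone genes rose in poly(A) RNA after ETS. Summed over the 64 cluster genes, the level was 51.9, 45.9, 51.5 and 51.7 CPM (counts-per-million after TMM scaling) in the 4 pre-therapy tumors and 118, 120, 120 and 115 CPM after ETS. These values did not overlap, and the mean was 2.35-fold higher. Obese hosts gave the same picture, with 50.8, 52.4, 50.9 and 46.9 CPM before therapy and 154, 149, 115 and 129 CPM after ETS, a 2.72-fold higher mean. Before therapy the cluster sums of lean and obese tumors overlapped, with means of 50.2 ± 2.91 and 50.3 ± 2.36 CPM (SD, n = 4 each). In summed TPM the rise was 1.81-fold in lean and 2.50-fold in obese tumors, again without overlap. Most of the rise in CPM came from a few genes. Lean means went from 15.5 to 34.8 CPM for H2bc4, 7.24 to 21.9 for H1f2 and 9.35 to 17.7 for H2bc21. Those of H2ac18 and H2ac19 went from 1.27 to 9.72 and from 1.28 to 9.84 CPM. The folds of the sum are thus not those of a typical cluster gene. Over the 37 tested cluster genes the median log2 fold change was 0.70 in lean and 0.83 in obese tumors. The sum over all 68 genes, most of it H1f0, behaved otherwise. It went from 317 ± 35.6 to 354 ± 47.2 CPM in lean tumors, where the groups overlapped, and from 555 ± 71.0 to 350 ± 15 CPM in obese tumors (SD, n = 4 each). In lean tumors the mean of H1f0 itself went from 264 to 232 CPM, so the small rise of the sum came from the cluster genes.

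**Figure D2:**
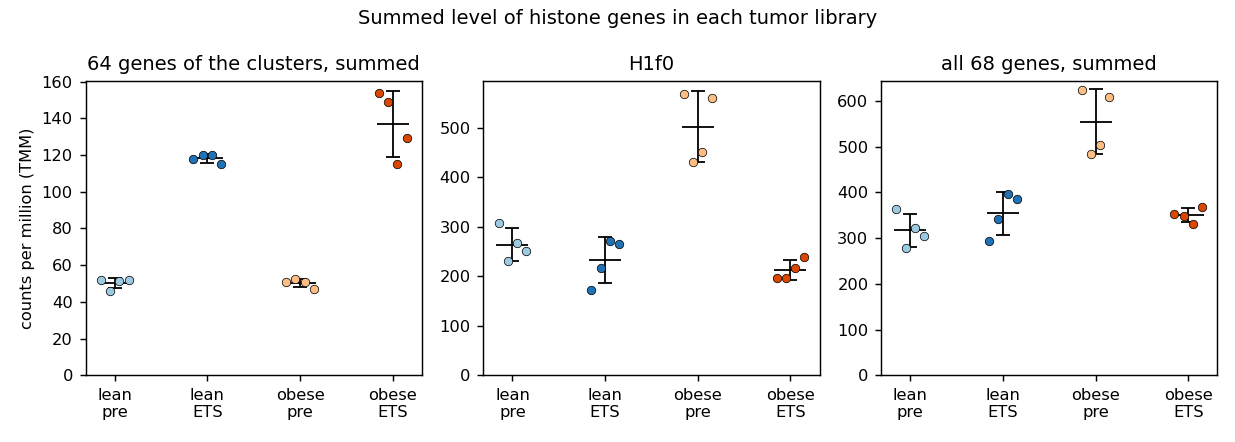
Summed level of the 64 cluster genes, of H1f0, and of all 68 histone genes in each library (CPM after TMM scaling). Points are tumors, 4 per group, with mean and SD. The cluster sum lies between 45.9 and 52.4 CPM in the 8 pre-therapy tumors and between 115 and 154 CPM after ETS. A few genes, led by H2bc4 and H1f2, make up most of its rise. The sum of all genes is mostly H1f0 and falls with it in obese hosts. In lean hosts its mean goes from 317 to 354 CPM while that of H1f0 goes from 264 to 232 CPM, both with overlap.

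Tests were made gene by gene with edgeR over all 16923 genes that passed a filter on low counts (a summed count of at least 160, which is a mean of 10 per library), and a gene is called when its Benjamini-Hochberg adjusted p was under 0.05. Of the 68 members 39 passed the filter. Those that passed did so on the sum over all groups, and 27 had lower counts (7 to 145 in all) and 2 had none. A member low before therapy can thus pass through its counts after ETS. Hist1h2al had 2 to 8 counts per pre-therapy library and 20 to 44 after ETS. H2ac6, H2bc15 and H4c1 also had most of their counts after ETS. For such members passing the filter was not independent of the rise. H2ac10 had most of its counts before therapy, so for H2ac10 passing was not independent of the fall. In lean tumors 16 members were called higher after ETS and 1 lower, where 21.2% of all tested genes were called higher and 22.5% lower. In obese tumors 16 were called higher and 2 lower, against 20.8% and 18.8% of all tested genes. The median log2 fold change of the 39 members was 0.68 in lean and 0.66 in obese tumors (all genes, -0.03 and 0.04). Higher in both hosts were 13 members, which is 81.2% of the 16 called higher in each host. The like share over all tested genes was not counted, so this overlap is given as a description. With limma on log2(TPM + 1), 11 members were called higher and 3 lower in lean tumors, and 16 higher and 3 lower in obese tumors. Of all 16923 tested genes 9026 were called there in lean tumors, 15.9% of these higher. In obese tumors 6085 were called, 46% of these higher. That scale lowers the log2 fold changes of all genes, with a median shift of -0.36 for the lean and -0.08 for the obese comparison.

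Among linker histones, H1f2 (histone H1.2, a main replication-dependent H1) moved most. In lean tumors H1f2 was at 7.99, 6.56, 6.19 and 8.22 CPM before therapy and at 24.7, 21.9, 22.1 and 19.1 CPM after ETS. Obese tumors held 11.4, 9.43, 10.2 and 11 CPM before and 31.4, 34.8, 29.2 and 43.3 CPM after. No treated tumor overlapped the pre-therapy tumors of its host. The log2 fold change of H1f2 was 1.6 ± 0.14 (SE) in lean (edgeR adjusted p = 2.53e-06) and 1.72 ± 0.14 in obese tumors (edgeR adjusted p = 9e-06). H1f3, a weaker expressed H1 of the same cluster, rose by 1.25 ± 0.28 in obese tumors (edgeR adjusted p = 0.00304). In lean tumors its call (log2 0.70, adjusted p = 0.0491) was lost under 6 of 8 other settings, at an adjusted p between 0.0541 and 0.311, and in 13 of 16 fits without a library (at most 0.141).

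The H2A class was carried by the copies H2ac18 and H2ac19. H2ac18 lay at 1.56, 0.969, 1.07 and 1.47 CPM in lean pre-therapy tumors and at 8.98, 11.9, 9.36 and 8.69 CPM after ETS. In obese tumors H2ac18 went from 1.70, 1.83, 1.37 and 1.28 CPM to 13, 10.8, 6.44 and 9.15 CPM. The lowest treated tumor stood well above the highest untreated tumor in either host. Its log2 fold changes were 2.94 ± 0.23 in lean (edgeR adjusted p = 1.94e-06) and 2.67 ± 0.23 in obese tumors (edgeR adjusted p = 9.73e-06), and those of its near-copy H2ac19 were 2.94 and 2.66. Taken as a sum, which does not depend on how shared reads were split between them, the pair rose 7.68-fold in lean and 6.34-fold in obese tumors without overlap. The other 16 H2A genes together went from 2.46 ± 0.356 to 2.94 ± 0.597 CPM in lean and from 2.23 ± 0.527 to 2.30 ± 0.666 CPM in obese tumors (SD, n = 4 each), with overlap in both hosts. Hist1h2al, annotated as a transcribed pseudogene away from the main cluster at chr13:51200084-51203066, rose to a like degree (log2 2.84 ± 0.45 and 2.66 ± 0.45, edgeR adjusted p = 0.000257 and 0.000479) from very few reads, 2 to 8 per pre-therapy library and 20 to 44 after ETS. It had no GENCODE model, so its shared windows were not counted. Whether it shares reads with H2ac18 and H2ac19 was not tested. H2ac6 was called higher in lean tumors alone (log2 1.61, edgeR adjusted p = 0.0119), with a log2 fold change of 0.83 in obese tumors (adjusted p = 0.164). The difference between hosts was not called for H2ac6. Most H2ac6 counts came after ETS, so passing the filter was not independent of its rise.

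The single member called lower in both hosts was H2ac10. Its counts were 11, 31, 25 and 28 in lean pre-therapy tumors and 8, 4, 6 and 7 after ETS. In obese tumors they were 4, 24, 41 and 6 before and 4, 5, 6 and 2 after, so that here the groups overlapped. H2ac10 passed the filter mainly through its pre-therapy counts, so its testing was not independent of the fall. The log2 fold changes were -1.69 ± 0.60 (edgeR adjusted p = 0.0343) and -2.14 ± 0.63 (edgeR adjusted p = 0.0152). The lean call was lost with no filter on low counts (edgeR adjusted p = 0.0548), and the obese call with only the compared tumors in the fit (edgeR adjusted p = 0.059) and on the TPM scale (limma adjusted p = 0.0543). Without the third obese pre-therapy tumor the adjusted p in obese tumors was 0.0716, and in lean tumors leaving out any of 7 lean libraries (all but the first pre-therapy tumor) gave values of 0.0531 to 0.0812. Of the H2ac10 windows 65.2% recur in another member.

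H2B was the class with the most calls: of 11 tested members 7 were called higher in lean tumors and 8 in obese ones, and all 11 log2 fold changes were above 0 in each host. H2bc4, the highest H2B gene, was at 14.5, 14.2, 18.2 and 15 CPM in lean pre-therapy tumors and at 35.4, 31.0, 35.2 and 37.7 CPM after ETS. In obese tumors it went from 12.8, 14.3, 15.2 and 11.8 CPM to 45.7, 42.2, 33.8 and 33.0 CPM. The groups were clear of each other in both hosts, at log2 fold changes of 1.17 ± 0.12 (edgeR adjusted p = 1.28e-05) and 1.52 ± 0.13 (edgeR adjusted p = 9.73e-06). H2bc8 rose from 2.36 ± 0.388 to 5.34 ± 0.129 CPM in lean and from 2.19 ± 0.202 to 6.12 ± 1.27 CPM in obese tumors (SD, n = 4 each), log2 1.17 ± 0.17 and 1.48 ± 0.17 (edgeR adjusted p = 0.000128 and 4.62e-05). H2bc21, a chromosome 3 gene whose transcript ends in a poly(A) signal, rose from 9.35 ± 1.68 to 17.7 ± 1.28 CPM and from 7.65 ± 1.75 to 17.5 ± 4.15 CPM (log2 0.92 and 1.20, edgeR adjusted p = 0.00184 and 0.000399). H2bc6, H2bc7 and H2bc9 also rose in both hosts, by log2 0.68 to 1.21 in lean and 1.31 to 1.68 in obese tumors. H2bc6 is at odds between units: in TPM its lean means were 1.72 ± 1.03 before and 1.74 ± 0.219 after ETS. H2bc15 and Hist1h2br were called higher in obese tumors alone, and H2bc3 in lean tumors alone. The Hist1h2br call was lost without the first obese ETS or the third obese pre-therapy tumor (edgeR adjusted p = 0.059 and 0.0504), the lean H2bc9 call without any of 3 lean tumors (0.0606 to 0.0784), and the H2bc3 call without any of 7 tumors (0.0503 to 0.128).

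**Figure D3:**
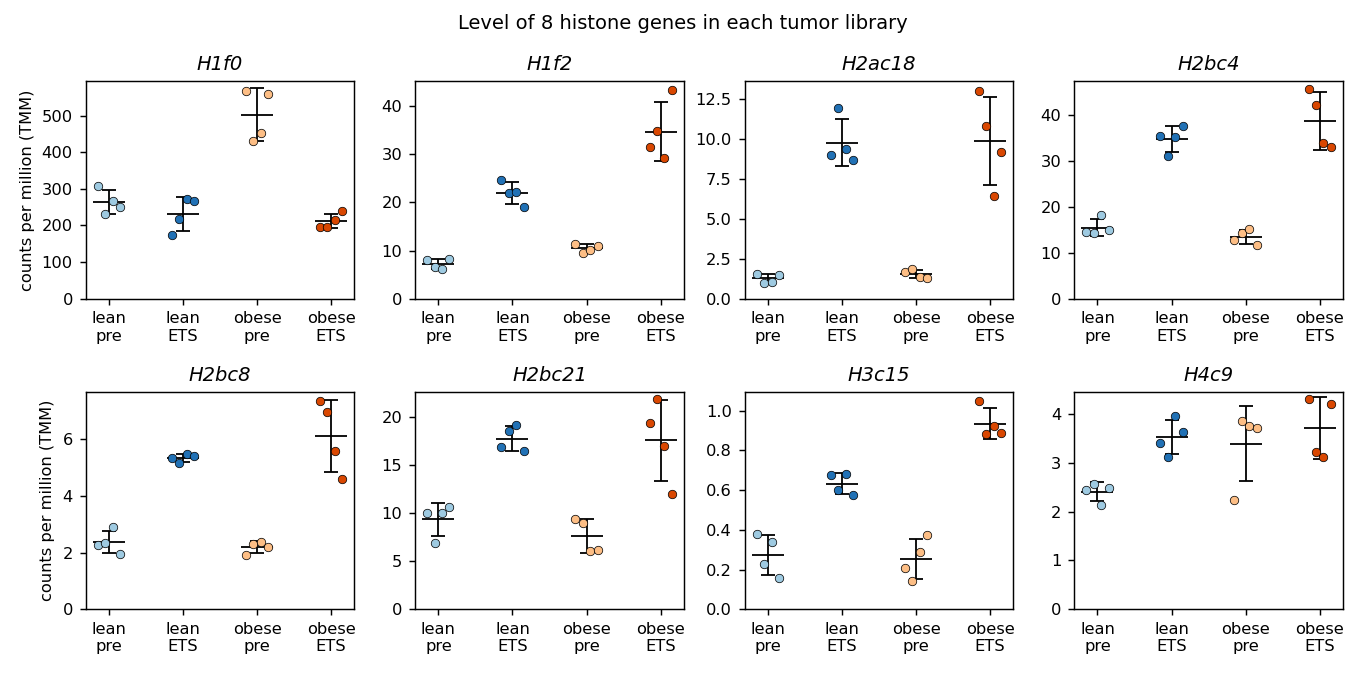
CPM after TMM scaling of 8 histone genes in each library, points being tumors (4 per group) with mean and SD, each panel on its own axis from 0. H1f2, H2ac18, H2bc4, H2bc8, H2bc21 and H3c15 lie higher after ETS in both hosts without overlap, H4c9 clears its pre-therapy group in lean hosts alone, and H1f0 is highest in obese pre-therapy tumors.

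H2A and H2B genes of the clusters often stand back to back with a shared promoter. Among members with a GENCODE strand there were 12 such pairs, with 164 to 281 bases between the gene starts. The H2B partner had the higher mean TPM in 11 of the 12 pairs. H2bc4 stood at 65.6 TPM beside H2ac6 at 0.957, H2bc8 at 15.9 beside H2ac8 at 1.65, and H2bc21 at 9.08 beside H2ac20 at 0.695 TPM. In 4 pairs both partners were tested. After ETS H2bc8 rose in both hosts (log2 1.17 and 1.48), whereas H2ac8 had values of 0.39 and -0.58 (edgeR adjusted p = 0.378 and 0.205). H2bc21 rose (log2 0.92 and 1.20) beside values of 0.18 and 0.05 for H2ac20 (edgeR adjusted p = 0.808 and 0.958). H2bc7 rose by log2 1.21 and 1.31, and H2ac7 had -0.05 and 0.30 (edgeR adjusted p = 0.94 and 0.654). The fourth pair differed from these in lean tumors, where H2ac6 was called with log2 1.61 beside 1.17 for H2bc4, while in obese tumors H2ac6 had 0.83 (edgeR adjusted p = 0.164) and H2bc4 rose by 1.52. The difference between partners was not tested, and the H2A partners rest on fewer reads. H2ac6 also passed the filter mainly through its counts after ETS.

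H3 and H4 had smaller summed rises. H3c14 and H3c15, copies of the chromosome 3 cluster, were together at 0.837, 0.5, 0.706 and 0.315 CPM in lean pre-therapy tumors and at 1.19, 1.44, 1.48 and 1.28 CPM after ETS. In obese tumors the pair went from 0.477, 0.341, 0.677 and 0.925 CPM to 2.03, 2.05, 1.95 and 1.82 CPM. The ranges were apart in both hosts, for a 2.28-fold and a 3.24-fold rise. Fitted singly, H3c14 had log2 1.18 and 1.53 (edgeR adjusted p = 0.0146 and 0.00388) and H3c15 log2 1.20 and 1.87 (edgeR adjusted p = 0.00823 and 0.000629). The other 5 tested H3 genes were called in no comparison.

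Of the H4 genes, H4c9 held most reads, at 2.44, 2.56, 2.13 and 2.49 CPM in lean pre-therapy tumors and 3.41, 3.11, 3.95 and 3.62 CPM after ETS. Its rise in lean tumors was small (log2 0.55 ± 0.19, edgeR adjusted p = 0.0272), and 3 of 8 other settings put its adjusted p above the threshold, at 0.0508 to 0.481. Without the third lean pre-therapy, the third lean ETS or the fourth lean ETS tumor it was 0.0741, 0.0694 and 0.0525. In obese tumors H4c9 was at 2.24, 3.85, 3.74 and 3.70 CPM before and 4.30, 3.22, 3.11 and 4.2 CPM after, with overlap (log2 0.13, edgeR adjusted p = 0.599). H4c1 was called in obese tumors (log2 2.12 ± 0.55, edgeR adjusted p = 0.00775) on counts of 4, 2, 13 and 2 before against 30, 30, 14 and 19 after. In lean tumors H4c1 was not called. H4c2 was called in neither host (log2 0.92 and 0.09, edgeR adjusted p = 0.15 and 0.906). Summed over the 11 H4 genes of the clusters, the level went from 4.12 ± 0.315 to 5.60 ± 0.392 CPM in lean tumors and from 5.07 ± 1.18 to 5.74 ± 1.05 CPM in obese tumors (SD, n = 4 each), with overlap in the latter. By class the summed rises in lean and obese tumors were 4.49-fold and 4.14-fold for H2A (1.19-fold and 1.03-fold without H2ac18 and H2ac19), 2.77-fold and 3.15-fold for cluster H1, 2.09-fold and 2.62-fold for H2B, 1.49-fold and 1.86-fold for H3, and 1.36-fold and 1.13-fold for H4. The median log2 fold changes of the tested cluster genes gave another order, with 0.39 and 0.30 for H2A, 0.70 and 1.25 for H1, 0.83 and 1.20 for H2B, 0.54 and 0.85 for H3, and 0.55 and 0.13 for H4.

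The calls can be set beside the annotated 3′ end of the cluster genes. Of all tested genes 21.2% were called higher in lean and 20.8% in obese tumors. Of 16 tested genes that run past the loop, 9 were called higher in lean and 8 in obese tumors (median log2 0.73 and 1.08). Of 13 tested genes that end at the loop 4 and 3 were called higher (0.47 and 0.57), nearer to the shares of all genes. The near-copies H2ac18 and H2ac19 were among these calls in both hosts. Models that end at the loop also share more windows of read length than those that run past it (medians of 52.3% and 15.4%). The groups were not tested against each other. The 3 tested cluster genes with a long UTR and no stem-loop, led by H2bc4 and H2bc21, had medians of 0.92 and 1.20, with 2 called higher in lean and all 3 in obese tumors. Of 4 tested short models 0 and 1 were called higher, and 1 in each host lower. All 7 tested members of the chromosome 3 cluster had log2 fold changes above 0 in each host, with 5 called higher in each. On chromosome 13 there were 11 called higher of 30 in each host.

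H1f0 went another way. It was at 308, 230, 267 and 251 CPM in lean pre-therapy tumors and at 173, 217, 272 and 266 CPM after ETS, which overlap (log2 -0.19 ± 0.14, edgeR adjusted p = 0.31). In obese tumors it was at 568, 430, 451 and 560 CPM before therapy and fell to 196, 197, 216 and 239 CPM, without overlap (log2 -1.25 ± 0.15, edgeR adjusted p = 4.86e-05). The difference between the hosts in this effect, lean minus obese, was called (log2 1.06 ± 0.20, edgeR adjusted p = 0.00265). On the TPM scale H1f0 was also called lower in lean tumors (log2 -0.59, limma adjusted p = 0.0103, or -0.30 relative to the median of all genes), and the difference between hosts, 0.73, had a limma adjusted p of 0.0523. As a share of all counts of the 68 genes H1f0 made up 83.1 ± 1.17% in lean and 90.3 ± 1.49% in obese pre-therapy tumors, and 65.1 ± 4.68% and 60.4 ± 5.14% after ETS (SD, n = 4 each). H1f10, the other H1 outside the clusters with enough reads, was called in no comparison (log2 0.28 and -0.53).

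**Figure D4:**
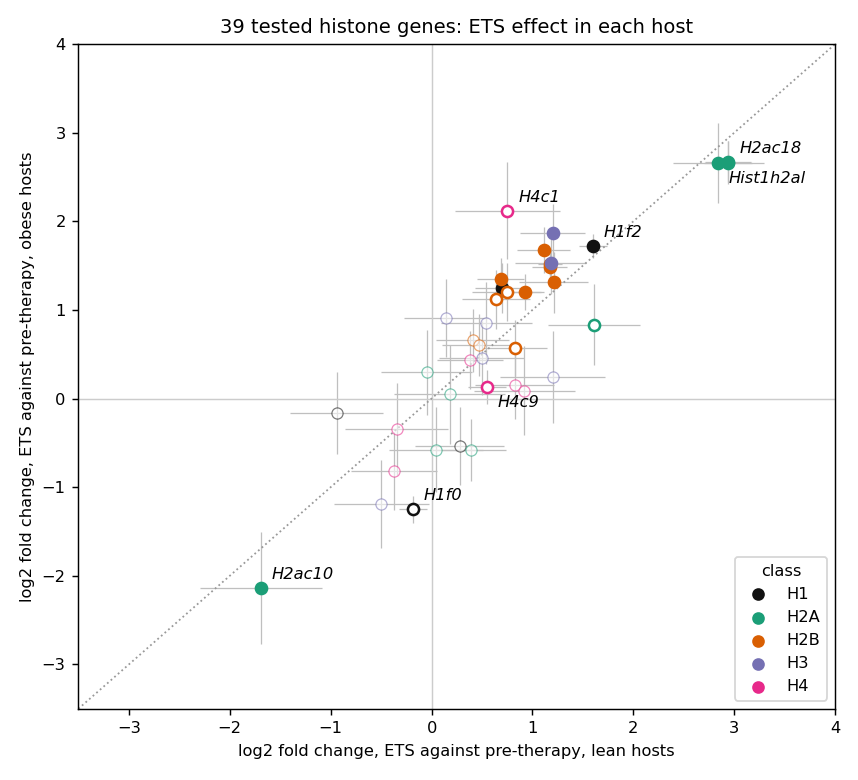
Log2 fold change of the 39 tested histone genes after ETS in lean (horizontal) and obese hosts (vertical), with SE bars and a dotted line of equal change. Filled points were called in both hosts, thick open points in a single host, thin open points in neither, and color gives the class. The 13 members called higher in both hosts lie upper right, and H1f0 sits near 0 on the lean axis and at -1.25 on the obese axis.

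Beyond H1f0, no member was called for a difference between the ETS effects of the hosts, where 7.81% of all tested genes were called higher in lean and 11.4% lower. At an unadjusted p under 0.05 there were 0 further members, and the lowest adjusted p was 0.174, for H2bc9. The 95% interval of the difference (lean minus obese, log2) was -0.53 to 0.29 for H1f2, -0.41 to 0.94 for H2ac18 and -0.73 to 0.03 for H2bc4, so that differences of these sizes are not excluded. With limma on log2(TPM + 1), H1f0 was not called and H2bc4, H2bc9, H3c15 and Hist1h2br were, all lower in lean, on a scale that moves the difference of all genes by a median of -0.29.

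Before therapy 2 members were higher in obese than in lean tumors and none was lower, where 14.3% of all tested genes were called higher and 13.5% lower. H1f0 was 1.90-fold higher (log2 0.93 ± 0.15, edgeR adjusted p = 0.000338). H1f2 was 1.45-fold higher (log2 0.54 ± 0.13, edgeR adjusted p = 0.00793), though on the TPM scale its limma adjusted p was 0.0585. Neither overlapped between the hosts. On that scale, which moves all genes by a median of -0.15 here, H1f0 was called higher and H3c6 lower. The median log2 difference of the 39 members was -0.01.

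Most genes that make, trim and handle histone mRNA and protein fell or were not called where the cluster histone sum rose. Of 14 genes for 3′ end processing and decay of histone mRNA, 6 fell in lean and 10 in obese tumors and none rose. Of all tested genes 22.5% were called lower in lean and 18.8% in obese tumors. Slbp, whose product binds the stem-loop, fell by 0.59 and 0.76 on the log2 scale (edgeR adjusted p = 0.000663 and 0.000153). Casp8ap2, which encodes FLASH, a scaffold of the cleavage complex, fell by 1.0 and 1.09, Srrt, which encodes the cap-linked adaptor ARS2, by 0.77 and 0.58, and Cpsf2, of the cleavage complex itself, by 0.45 and 0.48. The U7 particle genes Lsm10 and Lsm11 were not called in either host. Among 6 genes of transcription at the histone loci, 2 fell in lean and 4 in obese tumors. Npat, the coactivator of histone loci, fell by 0.47 and 0.48 and Pou2f1, which encodes the octamer factor OCT1, by 0.69 and 0.52. Hinfp, whose product acts at H4 promoters, was not called in either host (log2 -0.25 and -0.23).

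Of 24 histone chaperone genes, 18 fell and 1 rose in each host. Over all tested genes 22.5% were called lower in lean and 18.8% in obese tumors. Nasp, a carrier of H1 and of H3 with H4, fell by 1.01 and 1.36, Supt16 of the FACT complex by 1.08 and 0.78, and Chaf1a of the replication-linked assembly factor CAF-1 by 0.66 and 0.67. The gene that rose was Ipo4, an importin for H3 and H4 (log2 0.49 and 0.59). All 21 S phase genes fell in obese and 20 in lean tumors, with medians of -0.80 and -0.68. Uhrf1, which directs methylation to newly copied DNA, fell by 1.33 in lean and 0.91 in obese tumors, Ccna2, cyclin A2, by 0.88 and 1.22, and Pcna, the replication clamp, by 0.68 and 0.91. Rrm1 was the gene not called in lean tumors (log2 -0.28, edgeR adjusted p = 0.104).

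The 11 replacement histone genes, H1f0 and H1f10 included, split. H2afj, a variant of H2A known to build up in senescent cells with persistent DNA damage, rose by 1.46 in lean and 0.77 in obese tumors (edgeR adjusted p = 2.15e-06 and 0.000274), more so in lean (difference 0.69, edgeR adjusted p = 0.00993). H2afz, the H2A.Z gene, fell by 0.59 and 1.18, Cenpa, the centromeric H3, by 0.54 and 0.95, H3f3b, a gene for H3.3, by 0.40 and 0.78, and Macroh2a1 by 0.51 and 0.48. H3f3a, the other H3.3 gene, had 0.26 in lean and -0.29 in obese tumors, both called, and the hosts differed (edgeR adjusted p = 0.00692). In all 4 were called lower and 2 higher in lean tumors, and 7 lower and 2 higher in obese tumors. The shares of all tested genes called lower were 22.5% in lean and 18.8% in obese tumors. Those called higher were 21.2% and 20.8%, so 2 of 11 higher is near that share.

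**Figure D5:**
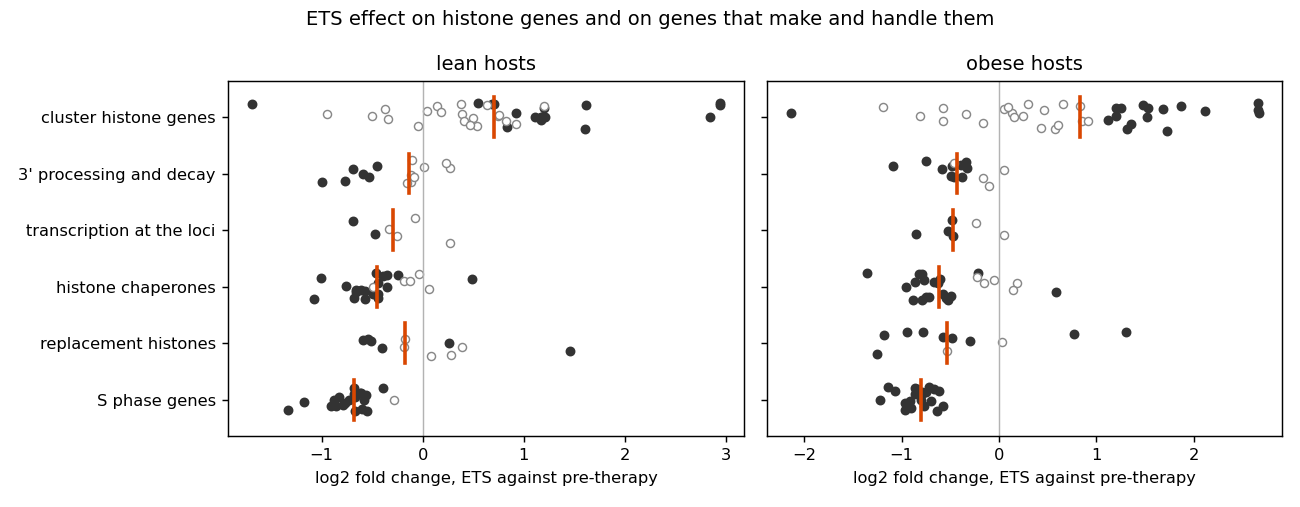
Log2 fold changes after ETS (horizontal axes) in lean and obese hosts of the tested cluster histone genes and of genes listed by role. Filled points were called at an adjusted p under 0.05, open points were not, and orange bars are medians. Cluster histones have medians of 0.70 and 0.83, while S phase genes have -0.68 and -0.80.

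Other RNAs without a poly(A) tail were counted for comparison. Only 4 of 11 such RNAs passed the filter. The near-identical copies Rn7s1 and Rn7s2 (7SL, of the signal recognition particle) rose in lean tumors (log2 1.42 each, edgeR adjusted p = 0.00569 and 0.00553) but fell in obese tumors (-0.97 and -0.96, edgeR adjusted p = 0.0398 and 0.0394). Rn7sk and Rpph1 were not called in either host. The summed level of the 11 was 2.06 to 5.35 CPM in lean pre-therapy and 4.11 to 9.04 CPM in lean ETS tumors, against 13 to 16.6 and 5.99 to 9.69 CPM in obese tumors. Of 44 tested small nucleolar and Cajal body RNAs, 31 fell in lean and 8 in obese tumors and none rose. Of all tested genes 22.5% were called lower in lean and 18.8% in obese tumors, so the obese count is near that share. None of these RNAs was called higher in both hosts, and their part in the histone values was not tested.

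Several marker lists of other cells moved with treatment too. Calls over all tested genes were 21.2% higher and 22.5% lower in lean tumors, and 20.8% higher and 18.8% lower in obese tumors. All 5 erythroid markers fell in both hosts, from a summed 107 to 478 CPM to at most 0.157 CPM in lean tumors (Alas2 at 0) and from 865 to 13200 CPM to 1.34 to 38.2 CPM in obese tumors. Macrophage markers went opposite ways, with 6 of 9 lower in lean tumors (399 to 1280 CPM before, 50.1 to 419 after) and 6 of 9 higher in obese tumors (43.4 to 258 CPM before, 350 to 1040 after). T and NK cell markers fell in lean tumors (5 of 6, from 32.4 to 55.5 CPM to 0.286 to 1.65) and 3 of 6 rose in obese tumors (at most 1.20 CPM before, with Cd3e at 0, and 0.656 to 2.73 after). Fibroblast markers fell in lean (4 of 6, from 528 to 2150 CPM to 96.1 to 595) and rose in obese tumors (6 of 6, from 95.7 to 607 CPM to 608 to 5630). Melanocyte markers were called higher in 2 of 9 in lean tumors (18800 to 23900 CPM before, 24200 to 28000 after) and 4 of 9 in obese tumors (11700 to 16000 CPM before, 11200 to 26600 after). Of 5 endothelial markers 1 was called lower in lean tumors (88.1 to 113 CPM before, 59.3 to 84.6 after) and 3 higher in obese tumors (41.2 to 77 CPM before, 77.1 to 221 after). Of 4 adipocyte markers 0 were called in lean tumors (10.2 to 24.5 CPM before, 7.65 to 17.4 after) and 1 was called higher in obese tumors (13.4 to 89.8 CPM before, 65.4 to 252 after). Of 4 skeletal muscle markers 0 were called in lean tumors (0.399 to 136 CPM before, 2.25 to 188 after) and 1 was called higher in obese tumors (0.803 to 1.2 CPM before, with Mb and Myh4 at 0, and 1.02 to 241 after). The lean counts of melanocyte and endothelial markers and the obese counts of adipocyte and skeletal muscle markers were near the shares of all genes. The part of these cell types in the histone values was not tested.

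The remaining 18 tested members were called in no comparison, with log2 fold changes from -0.94 (H1f4) to 1.20 (H3c7) in lean and from -1.19 (H3c3) to 0.91 (H3c6) in obese tumors. Of these, 13 in lean and 11 in obese tumors were above 0. Under the study's own filter, which drops any gene with a count of 0 in a library, 58 members are tested, 18 are called higher and 1 lower in lean tumors, and 20 higher and 2 lower in obese tumors. The shares of all genes called under that filter were not counted.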

How the data were processed

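RNA of 16 B16F10 tumors was read as poly(A)-selected, stranded, paired-end libraries. Reads were aligned by the authors to mm10 with HISAT2 2.1.0 after Trimmomatic and quantified with StringTie 2.1.3b, and the authors deposited raw counts per gene with no normalization, beside TPM values (transcripts-per-million) from the same step. The strand setting is not given in the sources used here. The 16 columns of FPKM values were not used. Members were the genes that match the symbol rule. Genes were matched by Entrez identifier to RefSeq (GRCm38.p6, 45679 genes, all 68 members) and to GENCODE M21 (67 members).

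Counts were scaled by TMM and tested with edgeR 4.0.16 (quasi-likelihood, R 4.3.3) in a fit of 16 libraries with a mean per group, a summed count of at least 160 and Benjamini-Hochberg adjustment over 16923 genes. Standard errors derive from the F statistic, and 95% intervals are the estimate ± 2.18 SE (12 residual degrees of freedom). The common biological coefficient of variation was 0.295. Levels are counts-per-million (CPM). The comparisons were ETS against pre-therapy in each host, the difference between these effects, and obese against lean before therapy. Alternatives were DESeq2 1.42.0 and its size factors, no filter, the study's exclusion of genes with a 0, edgeR's exact test on counts with 1 added, limma 3.58.1 on log2(TPM + 1), fits of the compared tumors alone, a replicate block and leaving out each library. The scripts were tested on simulated data. Counts of paralogs depend on how StringTie placed shared reads. Groups and replicate numbers came from the labels, which do not state separate animals, so p-values measure the spread between these samples. Same-group libraries differed by far more than sampling noise.

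The members and the gene lists were chosen with earlier results of these data known. Named were, in each class, the 2 members with the highest mean TPM and, in each comparison, up to 3 called members with the largest rise or fall and a mean of at least 1 CPM. Other called members, the partners of divergent pairs and members outside that rule were named after their values were seen. Of the listed genes, those with a role stated were picked among the called ones after their values were seen, and counts cover each list in full.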

Additional observations from a re-analysis of the deposited data

Results flagged for a closer look

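The ETS effect on H1f0 differed between hosts, by 1.06 on the log2 scale (lean minus obese, edgeR adjusted p = 0.00265), being -0.19 in lean and -1.25 in obese tumors. It held in all 16 fits with a library left out, with an adjusted p of at most 0.0107, and missed the threshold on the TPM scale. H4c9 stood apart in a single obese pre-therapy tumor, at 2.24 CPM where the others had 3.70 to 3.85 CPM. The cluster sum stood apart in a single lean pre-therapy tumor, at 45.9 CPM where the others had 51.5 to 51.9 CPM. By chance about 1 in 20 groups of 4 would be marked in this way, and 48 groups were examined.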

How the results depend on the processing

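Members called in lean tumors numbered 17, and between 12 (no filter) and 19 (the study's exclusion of genes with a 0) under the 8 other settings, 12 to 17 with a library left out. In obese tumors they numbered 18, with 15 to 22 and 16 to 19. The difference between hosts had 1 called member (1 to 2 with a library left out, the second being H4c1 without the third obese pre-therapy tumor) and 4 with limma on log2(TPM + 1). Before therapy there were 2, and 2 to 3 with a library left out. All genes called in lean tumors numbered 7402 in the main fit, 7396 with DESeq2 size factors and 9026 with limma on log2(TPM + 1). They were not counted for the other settings, so the member counts alone do not show how stable the histone result is. On the TPM scale 15.9% of called genes were higher in lean tumors, against 48.5%, 8.31% against 40.6% for the difference and 26.7% against 51.4% before therapy. The log2 ratio of the summed level of all 68 genes depended on H1f0: it was 0.16 in lean tumors, 1.20 without H1f0 and -0.026 as a share of raw totals. In obese tumors it was -0.66, but 1.39 without H1f0 and -0.12 in TPM, and before therapy 0.81, but -0.0048 without H1f0 and 0.49 in TPM. In lean tumors H1f3 and H2bc3 lost their calls under 6 settings each, H2bc9 and H4c9 under 3 each, H2ac10 under 1 and H2bc6 on the TPM scale (log2 0.08, adjusted p = 0.836), and in obese tumors H2ac10 and Hist1h2br under 2 each and H2bc15 under 1. The cause was not tested. H1f2, H2ac18, H2ac19, H2bc4, H2bc8, H2bc21, H2bc7, H3c14, H3c15 and Hist1h2al kept their calls in both hosts under all 8 settings and each library left out. Of these, Hist1h2al passed the filter mainly through its counts after ETS. The labels number the tumors alike in each group, but same-numbered tumors did not deviate together throughout (correlations from -0.06 to 0.53). With the replicate block 15 members were called in lean and 18 in obese tumors. Members with few reads, such as the 27 below the filter, cannot be read for differences of this size.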
